A study of Arabidopsis thaliana with 24 samples.

Results

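The salt response of wild-type Arabidopsis thaliana seedlings was read from 6 of the 24 RNA-seq libraries of the series, chosen by their labels alone. These were 3 libraries of wild-type (Col-0) seedlings on control medium (MS) and 3 of wild-type seedlings given 200 mM NaCl, each treated for 60 min. All were whole seedlings aged 9 days, raised on MS of 0.5 strength with 1% sucrose, and the labels give no number of seedlings per sample. The response was measured across 21759 genes that had enough counts to be tested, of 32833 listed in the count table.

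The series also holds exa1-1 mutant seedlings, raised and treated in the same way, and both genotypes at 23 °C and at 39 °C for 60 min. The 6 exa1-1 libraries of the salt set entered the fit to share 1 estimate of the spread and are otherwise used only for the test of a genotype difference. The series text states 3 independent biological replicates per group but not how the cultures were kept apart. The p-values therefore rest on the scatter of the 12 libraries in the fit within their groups, which may be technical in part.

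Salt reaches a seedling as an osmotic shock and, more slowly, as an accumulation of sodium ions. Water loss leads to the synthesis of the hormone abscisic acid (ABA), which binds receptors of the PYR/PYL family. The bound receptors hold clade A protein phosphatases (PP2Cs) inactive, which frees SnRK2 kinases to phosphorylate bZIP transcription factors of the ABF group, and these bind ABRE elements in promoters. A second branch, through DREB factors and the DRE element, acts without ABA, and the SOS pathway, HKT1 and NHX exchangers move sodium out of cells, out of the xylem sap and into vacuoles.

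Libraries of the 6 wild-type samples held 17600922 to 21557382 reads assigned to genes, and plastid-encoded and mitochondrion-encoded genes took at most 0.0386% and 0.0301% of them. Replicates of a group correlated at 0.995 to 0.996 across genes (log2 scale), and no pair had counts within sampling noise of each other. The EXA1 gene had 1677 to 2258 reads in the wild-type libraries and 214 to 308 in the exa1-1 libraries of the salt set. Levels below are CPM, read counts scaled to a common library size by TMM, a method that assumes that most genes do not change, and log2 fold changes are NaCl over MS with their standard error (SE).

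After 60 min most measured genes had moved. Of the 21759 genes, 16199 (74.4%) passed an adjusted p of 0.05, 8027 higher (36.9%) and 8172 lower (37.6%), and the libraries of the 2 groups did not overlap for 16354 genes (75.2%). A call by itself therefore says little about any gene list, and for most lists the counts of rises and falls in salt are given with the median. A rise of 2-fold or more was called for 2476 genes (11.4%) and a fall of that size for 2374 (10.9%). At 4-fold or more 902 genes rose (4.15%) and 803 fell (3.69%). With limma on log2(FPKM + 1), which changes the scaling, the added value and the test together, 6207 genes were higher and 10061 lower, and the median of all genes was -0.13 in place of -0.01. With RLE size factors, which change the scaling alone, 8106 were higher and 8083 lower. RLE also assumes that most genes do not change, so this near-even split cannot check that assumption.

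The genes that rose 4-fold or more took 0.893, 0.904 and 0.900% of all reads in the 3 MS libraries and 5.89, 5.88 and 5.85% in the 3 NaCl libraries. Those that fell 4-fold or more took 2.05, 2.07 and 2.08% on MS and 0.276, 0.277 and 0.276% with NaCl. The largest gains in CPM among called genes were those of a light-harvesting gene and of 2 protective proteins. LHCB1.3, named CAB1 in the reference, had 5727, 5609.6 and 5847 CPM on MS and 10544, 10724 and 10330.0 CPM with NaCl; its reads may be shared with the near-identical LHCB1 copies beside it. RD29A, a hydrophilic protein of dehydration and cold, had 169.6, 167 and 157 CPM on MS and 3919, 3949 and 3910.0 CPM with NaCl. COR47, a dehydrin, had 460.0, 456 and 458 CPM on MS and 3432, 3435 and 3435 CPM with NaCl. In all 3 genes the NaCl libraries lay above every MS library.

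The largest losses in CPM were those of PYK10 and of a pair of proteins of the lipid-transfer superfamily. PYK10, a beta-glucosidase of endoplasmic reticulum bodies that is known mainly from roots, had 2159, 2140.2 and 2141 CPM on MS and 867, 867 and 869 CPM with NaCl. AT2G45180 had 1067, 1086 and 1119 CPM on MS and 37.4, 36 and 33.1 CPM with NaCl, a log2 fold change of -4.94 ± 0.03 (adjusted p = 7.35e-177). AT2G10940 had 1199.9, 1201 and 1232 CPM on MS and 206, 211 and 199.9 CPM with NaCl, a change of -2.56 ± 0.02. None of these groups overlapped.

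Of the 12 salt markers, 10 ABA, drought and stress genes rose, the sodium exporter SOS1 was not called and HKT1 fell. RD29B, whose promoter is a standard reporter of ABA, had 0.0915, 0.399 and 0.214 CPM on MS and 28.9, 24.6 and 28.1 CPM with NaCl, a log2 fold change of 6.80 ± 0.18 (adjusted p = 9.68e-85). RD29A, its neighbour on chromosome 5, changed by 4.57 ± 0.02 (adjusted p = 1.2e-209). COR15A, which protects chloroplast membranes, had 6.63, 5.72 and 5.78 CPM on MS and 267, 249 and 256 CPM with NaCl, a change of 5.41 ± 0.05. In each of the 3 genes every NaCl library was above every MS library, and RD29B was near the detection limit on MS, with 15 reads over 3 libraries.

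NCED3, the rate-limiting enzyme of ABA synthesis, had 2.52, 2.7 and 3.27 CPM on MS and 71.9, 67.6 and 70.1 CPM with NaCl, a rise of 4.63 ± 0.09 (adjusted p = 8.02e-109). P5CS1, the rate-limiting enzyme of proline synthesis, had 30.2, 25.5 and 26.9 CPM on MS and 389, 388 and 377 CPM with NaCl, a rise of 3.80 ± 0.04. DREB2A, a DRE-binding factor of drought, had 12, 13.5 and 11.7 CPM on MS and 176, 180.0 and 175 CPM with NaCl, a rise of 3.83 ± 0.05. The 3 genes showed no overlap between groups and little spread within them.

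DDF1, a dwarfing relative of the CBF factors, had 0.594, 0.133 and 0.375 CPM on MS and 30.6, 31.4 and 29.9 CPM with NaCl, a rise of 6.37 ± 0.17. HB7, a homeodomain factor raised by ABA, had 27.6, 31.9 and 31.8 CPM on MS and 334, 336 and 328 CPM with NaCl, a rise of 3.45 ± 0.04. ABI1, the PP2C first found in ABA-insensitive mutants, had 103, 103 and 103 CPM on MS and 537, 530.4 and 531 CPM with NaCl, a rise of 2.37 ± 0.03, and STZ, a zinc finger factor that gives yeast salt tolerance, had 37, 39.5 and 39.7 CPM on MS and 112, 114 and 112 CPM with NaCl, a rise of 1.54 ± 0.05.

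The pair of sodium transport markers did not rise. SOS1, the plasma membrane sodium exporter, had 23.4, 21.7 and 21.3 CPM on MS and 22.5, 23.8 and 22.8 CPM with NaCl, so the groups overlapped (log2 fold change 0.06 ± 0.08, adjusted p = 0.506). HKT1, which draws sodium back from the xylem, had 2.33, 4.08 and 4.28 CPM on MS and 1.66, 1.56 and 1.65 CPM with NaCl, and all 3 NaCl libraries were below the MS libraries (-1.12 ± 0.24, adjusted p = 1.25e-05).

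**Figure D1:**
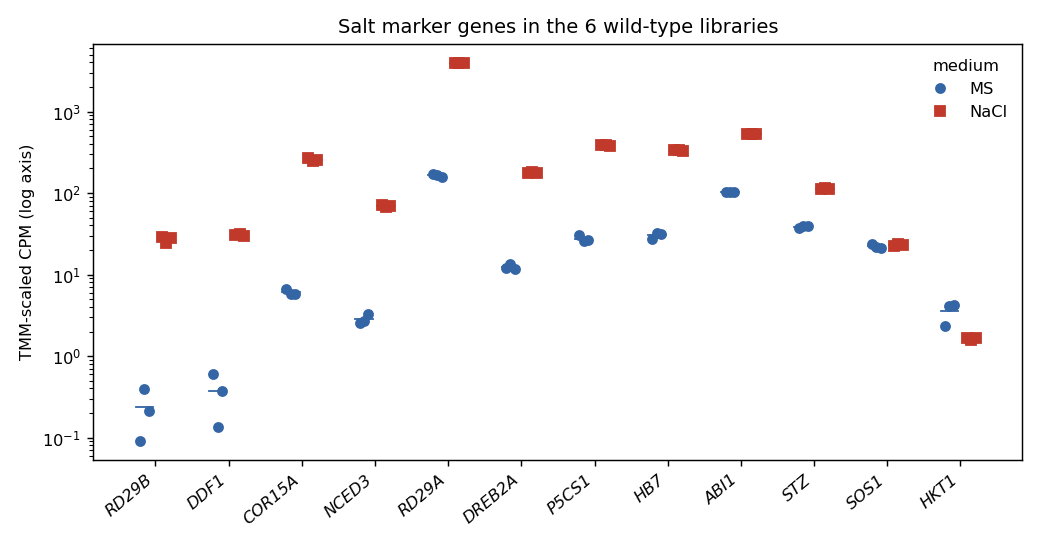
TMM-scaled CPM (log axis) of 12 salt marker genes in the 3 MS libraries (blue circles) and the 3 NaCl libraries (red squares) of the wild type, with a bar at each group mean. The NaCl points lie above the MS points in 10 genes, overlap them for SOS1 (adjusted p = 0.506) and lie below them for HKT1.

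The stretches before the start of 6 of these and related genes, picked as examples, are printed with matches to the elements of the ABA and drought branches. They were read from RefSeq's TAIR10.1 genome and are the 250 bases before the annotated start of each gene, written 5′ to 3′ on the gene's strand. Capitals mark ABRE matches (ACGTGGC or ACGTGTC) and DRE matches (GCCGAC or ACCGAC) on either strand. RD29A and COR15A are shown as strongly raised genes with DRE matches only, RD29B, LEA4-5 and LEA7 as genes with both kinds, and PYL4, a receptor gene that fell, as one with neither.
RD29A (chr5:21240467-21240716, plus strand): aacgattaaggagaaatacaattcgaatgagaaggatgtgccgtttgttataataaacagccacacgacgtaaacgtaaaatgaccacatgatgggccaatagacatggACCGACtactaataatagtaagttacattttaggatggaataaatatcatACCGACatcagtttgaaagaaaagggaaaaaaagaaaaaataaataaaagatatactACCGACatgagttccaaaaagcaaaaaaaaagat
COR15A (chr2:17712331-17712580, minus strand): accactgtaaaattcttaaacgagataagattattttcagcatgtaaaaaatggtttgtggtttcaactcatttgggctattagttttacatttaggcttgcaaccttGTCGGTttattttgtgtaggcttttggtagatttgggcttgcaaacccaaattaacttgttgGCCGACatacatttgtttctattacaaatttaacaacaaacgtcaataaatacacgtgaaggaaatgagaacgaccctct
RD29B (chr5:21236771-21237020, plus strand): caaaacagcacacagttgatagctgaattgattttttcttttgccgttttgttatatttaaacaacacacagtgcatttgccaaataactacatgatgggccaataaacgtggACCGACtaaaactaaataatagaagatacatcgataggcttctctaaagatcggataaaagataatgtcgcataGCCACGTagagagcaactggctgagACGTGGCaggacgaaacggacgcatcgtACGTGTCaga
LEA4-5 (chr5:2090431-2090680, minus strand): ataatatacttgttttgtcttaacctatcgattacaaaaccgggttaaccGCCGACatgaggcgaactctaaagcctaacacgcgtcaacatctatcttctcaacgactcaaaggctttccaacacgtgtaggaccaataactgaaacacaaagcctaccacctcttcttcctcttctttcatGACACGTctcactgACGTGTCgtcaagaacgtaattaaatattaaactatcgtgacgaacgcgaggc
LEA7 (chr1:19619474-19619723, plus strand): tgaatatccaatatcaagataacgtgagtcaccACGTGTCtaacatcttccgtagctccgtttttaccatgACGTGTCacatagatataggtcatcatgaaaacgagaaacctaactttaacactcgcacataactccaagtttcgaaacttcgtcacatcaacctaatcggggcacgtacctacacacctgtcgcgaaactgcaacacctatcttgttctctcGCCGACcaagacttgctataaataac
PYL4 (chr2:16049668-16049917, plus strand): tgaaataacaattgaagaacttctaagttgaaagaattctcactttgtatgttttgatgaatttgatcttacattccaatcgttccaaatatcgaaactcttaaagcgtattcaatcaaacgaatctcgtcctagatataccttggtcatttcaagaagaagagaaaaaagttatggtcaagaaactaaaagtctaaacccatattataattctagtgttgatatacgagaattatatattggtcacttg

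RD29A held 3 DRE matches, whose outermost bases lay 141, 91 and 34 bases before the start, and no ABRE match in this window. RD29B held 3 ABRE matches, 63, 38 and 10 bases before the start, and 1 DRE match. LEA4-5 held 2 ABRE matches, 67 and 53 bases before the start, and 1 DRE match 200 bases before it. Other named genes did not divide in this way. SOS1, which was not called, held a DRE match 154 bases before the start. The root hair gene RHS19, which fell, held a DRE match at 97 bases and an ABRE match at 80. P5CS1, a marker that rose, held neither kind. A match is a description of letters and not a measured binding site.

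The 12 largest rises among genes with a symbol were led by protectants, PP2Cs and transcription factors. GOLS2, which makes galactinol for raffinose synthesis, had 0.137, 0 and 0.0536 CPM on MS and 55.4, 52.1 and 49.6 CPM with NaCl, a log2 fold change of 9.55 ± 0.19 (adjusted p = 6.67e-106). BHLH92, a basic helix-loop-helix factor, had 0.0457, 0.133 and 0.0536 CPM on MS and 42.9, 47 and 49.2 CPM with NaCl, a rise of 9.08 ± 0.19. TSPO, an ABA-induced membrane protein that binds haem, had 0.137, 0.133 and 0.161 CPM on MS and 54.4, 48.8 and 48.5 CPM with NaCl, a rise of 8.40 ± 0.17. These 3 genes were close to absent on MS, with 4 to 9 reads over the 3 libraries, and clearly present in every NaCl library.

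Late embryogenesis abundant (LEA) proteins, which are hydrophilic and shield other proteins during drying, gave the next largest rises. LEA4-5 had 1.23, 1.11 and 0.536 CPM on MS and 324, 322 and 301 CPM with NaCl, a rise of 8.32 ± 0.07, and LEA7 had 0.412, 0 and 0.589 CPM on MS and 82.6, 82.1 and 82 CPM with NaCl, a rise of 7.99 ± 0.16. HAI2, a PP2C of the highly ABA-induced group, had 0.457, 0.399 and 0.321 CPM on MS and 99.3, 89.5 and 99.9 CPM with NaCl, a rise of 7.90 ± 0.11. Every NaCl library exceeded the MS libraries by 2 orders of magnitude in these genes.

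HSFA6B, a heat stress factor that ABA raises, had 1.92, 1.55 and 1.18 CPM on MS and 231, 237 and 244 CPM with NaCl, a rise of 7.24 ± 0.07. The others were DIP2, annotated as a ubiquitin ligase (7.82 ± 0.16), the cytochrome P450 gene CYP715A1 (7.44 ± 0.17), the MYB factor MYB121 (7.44 ± 0.30) and the third HAI phosphatase, HAI3 (6.92 ± 0.21). U4.10, a spliceosomal U4 RNA, had 3 reads on MS and 461 with NaCl, a ratio of 185 with a counting interval of 63.0 to 902. U4 RNAs are a family of near-identical copies, so that gain is uncertain. FPKM values with 1 added gave smaller log2 fold changes for such low genes, for example 5.08 for GOLS2 and 3.29 for MYB121.

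Of the genes without a symbol, 3 were named after their values were seen, since they had no read in any MS library. AT4G33467, annotated as an uncharacterized protein, had 1289 reads with NaCl and was at least 518-fold higher, taking 3 reads over the MS group as the floor. AT3G17520, annotated as a LEA protein, had 1200 reads and was at least 482-fold higher. AT5G50360, annotated with a von Willebrand factor A domain, had 1167 reads and was at least 469-fold higher. These floors cover counting error only.

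The 12 largest falls were led by genes of cell walls, several of them known from root hairs. EXT13, a hydroxyproline-rich extensin of the wall, had 383 reads on MS and 1 with NaCl, a ratio of 318 with a counting interval of 56.7 to 12574, and extensins share repeated sequence that reads may not tell apart. CRK30, a cysteine-rich receptor-like kinase, had 27.7, 28.6 and 25.9 CPM on MS and 0.237, 0.12 and 0.213 CPM with NaCl, a log2 fold change of -7.12 ± 0.19 (adjusted p = 3.04e-85). PYL6, an ABA receptor, had 67, 73.6 and 74.5 CPM on MS and 1.3, 0.721 and 1.12 CPM with NaCl, a log2 change of -6.08 ± 0.11. The groups of these genes were separated by more than an order of magnitude.

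FLA9, a fasciclin-like arabinogalactan protein of the cell surface, had 131, 127 and 134 CPM on MS and 3.49, 3.19 and 4.37 CPM with NaCl, a log2 change of -5.14 ± 0.07. The xyloglucan-modifying enzymes XTH33 (-5.95 ± 0.30) and XTH13 (-5.82 ± 0.36), the extensin EXT6 (-6.46 ± 0.34) and the root hair genes RHS19 (-5.29 ± 0.18) and RHS13 (-4.85 ± 0.17) fell with it. BHLH39, a factor of the iron deficiency response in roots, had 7.96, 8.47 and 8.36 CPM on MS and 0.414, 0.12 and 0.213 CPM with NaCl, a log2 change of -5.02 ± 0.28. CYP710A4, a sterol desaturase (-5.66 ± 0.29), and MLO15 (-4.98 ± 0.35) completed the set.

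Root markers moved in the same direction, which is given here beside the falls it accompanies. Of 24 tested root markers, 18 fell and 5 rose, with a median log2 fold change of -1.16, against -0.01 over all genes. Their summed level was 367, 359 and 352 CPM on MS and 171, 169.8 and 169 CPM with NaCl. The root hair wall protein PRP3 had -4.47 ± 0.15, the root hair extensin LRX1 -3.73 ± 0.21 and COBL9, which root hair growth needs, -2.46 ± 0.22, while the hair initiation factor RHD6 rose by 0.84 ± 0.20 and no defining root marker was at 0. In whole seedlings, fewer cells of a type and less RNA per cell cannot be told apart, and the part of root RNA in any fall was not tested.

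Shoot markers moved in both directions, with 8 of 18 higher and 8 lower (median -0.28). Their summed level, most of it RBCS1A reads, was 6723, 6656 and 6867 CPM on MS and 10334, 10505 and 10363 CPM with NaCl. Guard cell markers had 8 of 13 higher and 3 lower (median 0.55), with the anion channel gene ALMT12 at 1.198 ± 0.09 and the stomatal lineage factor SPCH at -1.36 ± 0.12. Of 19 seed storage and oil body markers only 6 had enough reads to be tested, and the remaining 13 had at most 12 reads over the 3 NaCl libraries.

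ABA signalling components moved against each other by class. ABA receptor genes fell in 7 of 9 tested cases, with a median of -1.59, and 5 of the 14 listed receptors had too few reads to be tested. PYR1 had 246, 239 and 237 CPM on MS and 53.2, 47.2 and 51.8 CPM with NaCl, a log2 change of -2.25 ± 0.04, and PYL4 had 228, 224 and 239 CPM on MS and 15.7, 13.5 and 12.9 CPM with NaCl, a log2 change of -4.04 ± 0.05. PYL5 (-3.21 ± 0.05), PYL2 (-1.59 ± 0.23), PYL1 (-1.17 ± 0.08) and PYL8 (-0.42 ± 0.03) also fell. PYL7 (1.83 ± 0.06) and PYL9 (0.56 ± 0.09) rose.

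Clade A PP2C genes, the repressors that bound receptors inactivate, rose in 9 of 9 cases, each by more than 2-fold, with a median of 3.52. HAI1 had 3.02, 4.43 and 4.45 CPM on MS and 302, 305 and 295 CPM with NaCl, a rise of 6.25 ± 0.06, and ABI2 rose by 3.74 ± 0.06, HAB1 by 2.74 ± 0.03, HAB2 by 1.24 ± 0.05 and AHG3 by 3.01 ± 0.03. AHG1, known from seeds, had 3 reads on MS and 32 with NaCl, a ratio of 12.9 with a counting interval of 4.03 to 65.7.

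SnRK2 kinase and ABA bZIP genes rose in 17 of 20 cases and fell in none (median 1.05). Of the kinases that ABA activates, SNRK2.2 had 0.43 ± 0.03 and SNRK2.3 1.23 ± 0.06. Another kinase of the family, SNRK2.1, had 0.12 ± 0.04, which changed sign on FPKM values. ABF3, an ABRE-binding factor, went from 39.1 ± 2.74 to 336 ± 6.71 CPM (mean ± SD, n = 3), a rise of 3.099 ± 0.04. AFP1 (4.35 ± 0.05) and AFP3 (3.36 ± 0.05), which bind ABI5 and hold it back, and GBF3 (3.25 ± 0.05), a G-box factor, rose as well. The kinase OST1 (1.22 ± 0.07) and the factors ABF2 (1.52 ± 0.05) and ABI5 (2.25 ± 0.11) rose too; these 3 were named after their values were seen.

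**Figure D2:**
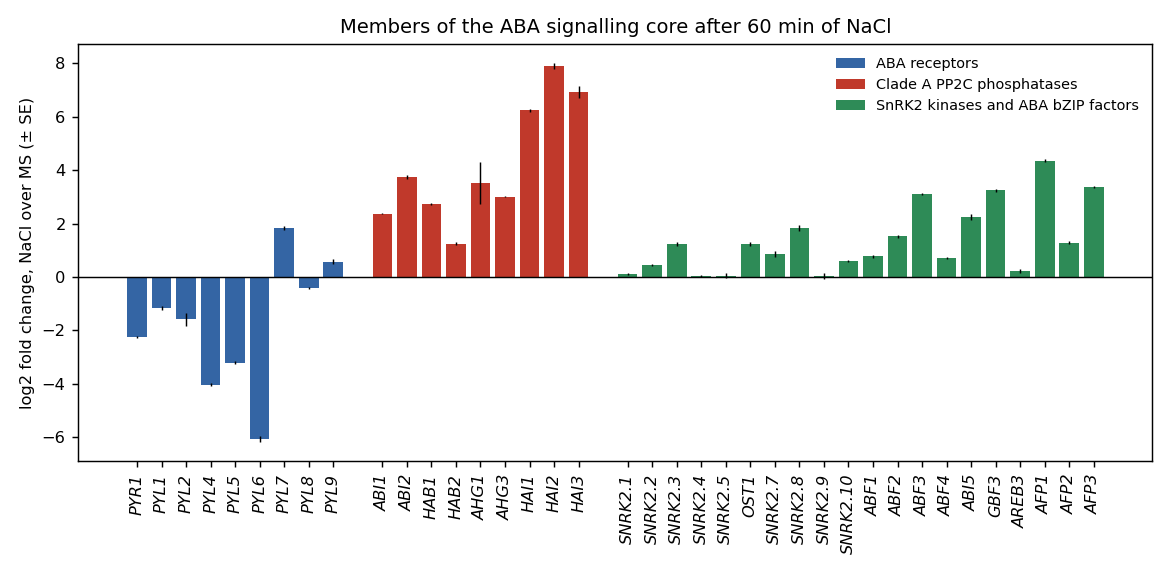
Log2 fold change (NaCl over MS, ± SE) of each tested ABA receptor (blue), clade A PP2C (red) and SnRK2 kinase or ABA bZIP factor (green) gene in the wild type, 3 libraries per group. Of the receptors 7 of 9 lie below 0 (median -1.59), and the 9 phosphatases lie above it (median 3.52).

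Genes that make ABA rose together with genes that remove it. Of 19 tested genes of ABA synthesis, breakdown and transport, 15 rose and 3 fell (median 1.44). ABA1, the zeaxanthin epoxidase at the head of the pathway, rose by 2.79 ± 0.06 (adjusted p = 1.6e-96). CYP707A1, an ABA 8'-hydroxylase that starts its breakdown, rose by 1.92 ± 0.07, and UGT71B6, which glucosylates ABA, by 1.79 ± 0.16.

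Dehydrins, COR, RD and LEA genes rose in 29 of 30 cases, 28 of them by 2-fold or more, with a median of 3.36. Their summed level was 5075, 5039 and 5217 CPM on MS and 23581, 23125 and 23177 CPM with NaCl, with no overlap between groups. RD20, a calcium-binding caleosin, went from 2.16 ± 0.208 to 195 ± 2.82 CPM (mean ± SD, n = 3), a rise of 6.49 ± 0.07, and RAB18, a dehydrin, went from 3.04 ± 0.167 to 178 ± 1.89 CPM, a rise of 5.87 ± 0.06. The member that did not pass was GRP7, an RNA-binding protein of the clock (-0.05 ± 0.04, adjusted p = 0.273), named after its value was seen.

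Osmolyte genes moved in both directions. Of 12 proline genes tested, 8 rose and 2 fell (median 0.78). P5CS2, the second synthase gene, rose by 1.34 ± 0.03, DELTA-OAT, of the ornithine route, by 1.1 ± 0.04, and the proline carrier PROT2 by 1.06 ± 0.07. P5CR, the last enzyme of synthesis, fell (-0.21 ± 0.03). PRODH1, the first enzyme of breakdown, had 0.12 ± 0.04 (adjusted p = 0.00168), which changed sign on FPKM values and was lost with all 24 libraries in 1 fit (adjusted p = 0.385). The factor BZIP1 rose by 1.81 ± 0.06 and BZIP53, which activates PRODH1, had -0.56 ± 0.03, a fall.

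Of 24 galactinol, raffinose and trehalose genes, 18 rose and 6 fell (median 1.03). Besides GOLS2, GOLS4 rose by 3.303 ± 0.06, GOLS1 by 1.23 ± 0.07 and the trehalose phosphate phosphatases TPPD and TPPF by 2.43 ± 0.18 and 2.07 ± 0.11.

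Ion transport genes moved in both directions, 18 of 37 higher and 10 lower, with a median of 0.18 and 9 not called. The SOS2 kinase had 0.06 ± 0.11 (adjusted p = 0.609) and its calcium sensor SOS3 0.25 ± 0.08, a call lost on FPKM values (adjusted p = 0.338). CAX3, a vacuolar calcium and proton exchanger, rose by 2.64 ± 0.05 and AKT2, a potassium channel of phloem, by 1.79 ± 0.15. SKOR, which loads potassium into the xylem, fell (-2.69 ± 0.21), as did SLAH1, an anion channel subunit of root stele (-3.55 ± 0.28); SKOR is also in the root marker list. Of genes named after their values were seen, the vacuolar sodium exchangers NHX1 and NHX2 rose by 1.31 ± 0.04 and 1.27 ± 0.07, while the proton pump AHA2 (-0.95 ± 0.02) and the root potassium channel AKT1 (-0.90 ± 0.05) fell.

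All 20 aquaporin genes, which encode water channels, were called, 10 higher and 10 lower. PIP1;4, of the plasma membrane, had 105, 97.7 and 104 CPM on MS and 471, 476 and 474 CPM with NaCl, a rise of 2.21 ± 0.03, and DELTA-TIP, of the vacuole, had 345, 361 and 357 CPM on MS and 72.4, 72.1 and 70.9 CPM with NaCl, a log2 change of -2.30 ± 0.03. TIP2;3 rose by 2.46 ± 0.10 and PIP1B by 0.99 ± 0.02, while TIP4;1, a root marker, had -1.76 ± 0.13 and PIP1A -0.53 ± 0.03. The median of the list, 0.07, became -0.08 on FPKM values.

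Transcription factor families of drought and cold rose nearly throughout. CBF and DREB genes rose in 18 of 21 cases (median 1.94), with DREB19 at 4.77 ± 0.20, ERF53 at 4.61 ± 0.28, CBF1 at 3.398 ± 0.22, CBF2 at 2.22 ± 0.26 and CBF3 at 4.49 ± 0.44. CBF levels stayed low, at a mean of 0.727 ± 0.0289 to 7.77 ± 1 CPM for CBF1. NAC genes rose in 20 of 22 cases and fell in none (median 1.48). NAC019 went from 4.38 ± 0.853 to 162 ± 3.73 CPM (mean ± SD, n = 3), a rise of 5.22 ± 0.06, and RD26 (3.80 ± 0.04), NAC055 (3.26 ± 0.09) and NAC032 (2.88 ± 0.04) followed.

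MYB, homeobox and NF-Y factors of water deficit rose in 32 of 39 cases and fell in 6 (median 1.45). MYB108 rose by 4.97 ± 0.09, HB40 by 5.15 ± 0.26, MYB41, of suberin, by 4.25 ± 0.16, MYB15 by 3.90 ± 0.06 and MYB2 by 3.45 ± 0.15. WRKY genes, factors of defence and wounding, rose in 21 of 29 cases and fell in 5 (median 0.91), with WRKY46 at 2.82 ± 0.11, WRKY40 at 2.41 ± 0.04 and WRKY75 at 2.28 ± 0.09.

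C2H2 zinc finger genes divided, 7 of 11 higher and 4 lower (median 1.36). ZAT12 (2.58 ± 0.06), AZF2 (2.52 ± 0.07), ZAT6 (1.61 ± 0.04), ZAT11 (1.61 ± 0.18) and ZAT7 (1.36 ± 0.18) rose with STZ, while AZF3 (-2.03 ± 0.10), ZFP4 (-1.21 ± 0.07), AZF1 (-0.95 ± 0.23) and ZFP8 (-0.65 ± 0.08) fell. Ethylene response factors also divided, 15 of 27 higher and 11 lower (median 0.29), 9 and 6 of them by 2-fold or more. The largest rises were those of RRTF1, a redox-responsive factor (1.03 ± 0.465 to 78.4 ± 2.123 CPM, a rise of 6.28 ± 0.11), ORA47 (5.90 ± 0.14) and ERF13 (4.09 ± 0.11). The largest falls, named after their values were seen, were those of ERF73 (-2.52), ORA59 (-2.39) and RAP2.11 (-2.34).

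Signalling and redox genes rose more often than they fell. Calcium and kinase genes were higher in 26 of 35 cases and lower in 5 (median 0.41). MAPKKK18, a kinase kinase of the ABA pathway, went from 1.03 ± 0.194 to 48.1 ± 1.14 CPM (mean ± SD, n = 3), a rise of 5.52 ± 0.12, and MAPKKK21 (5.08 ± 0.20), the calmodulin-like CML37 (4.84 ± 0.12) and the channel CNGC19 (4.11 ± 0.12) rose strongly. TCH3, a calmodulin-like gene raised by touch, fell (-0.45 ± 0.03).

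Of 37 peroxide and redox genes, 26 rose and 7 fell (median 0.84). Genes known from mitochondrial dysfunction were among those that rose, with AOX1A, the alternative oxidase, at 2.33 ± 0.03 (74.4 ± 2.16 to 374 ± 2.66 CPM), OM66 at 2.31 ± 0.04, UGT74E2 at 2.93 ± 0.04 and CYP81D8 at 2.402 ± 0.04. APX1, the main cytosolic ascorbate peroxidase, fell (-0.23 ± 0.02). APX2, known from heat and strong light, had 0.183, 0 and 0 CPM on MS and 2.07, 4.93 and 3.25 CPM with NaCl. The log2 fold change of APX2, 5.61, became 9.03 without WT_MS replicate 1, so its size is not settled.

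Jasmonate genes rose in 28 of 30 cases and fell in 2, 20 of them rising by 2-fold or more (median 1.299). LOX2, a lipoxygenase of the synthesis pathway, had 10.7, 11.8 and 11.8 CPM on MS and 156, 149 and 156 CPM with NaCl, a rise of 3.75 ± 0.05. LOX3 (3.14 ± 0.09) and LOX4 (2.56 ± 0.11), the marker TAT3 (4.80 ± 0.09), the repressor JAZ7 (3.38 ± 0.12) and CYP94B3 (3.89 ± 0.04), which oxidises the active hormone, rose with it.

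Ethylene genes fell more often than they rose, 13 of 24 against 7 (median -0.17). Within synthesis, the ACC synthases ACS2 (3.71 ± 0.10) and ACS6 (3.37 ± 0.04) rose, and ACS5 (-2.57 ± 0.54), ACS4 (-1.16 ± 0.29) and the ACC oxidase ACO1 (-2.81 ± 0.10) fell. ARL, a growth regulator related to ARGOS, also fell (-1.67 ± 0.07). Among 26 gibberellin genes 10 fell and 7 rose (median -0.08), where 37.6% of all genes were lower and 36.9% higher. GA2OX7 and GA2OX6, which inactivate gibberellin, rose by 4.83 ± 0.13 and 1.94 ± 0.05, whereas GA3OX1, of the last synthesis step, had -2.02 ± 0.13 and the growth-related gene GASA6 -4.39 ± 0.11. GA3OX2, named after its value was seen, had -2.59 ± 0.60, at under 1 CPM in both groups.

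Genes of auxin, cytokinin and brassinosteroid, which drive growth, were mostly lower. Auxin genes fell in 35 of 54 cases and rose in 13 (median -0.51). The influx carriers LAX2 (-1.94 ± 0.10) and LAX3 (-1.63 ± 0.06) fell, while IAA30 (2.112 ± 0.16) and the synthesis gene YUC9 (1.85 ± 0.11) rose, and the SAUR19 to SAUR24 copies in that list may exchange reads. Cytokinin genes fell in 16 of 26 cases (median -0.77), among them the response regulators ARR3 (-1.70 ± 0.47), ARR4 (-0.88 ± 0.04) and ARR5 (-0.84 ± 0.10) and the synthesis gene IPT3 (-1.69 ± 0.06), and LOG1 and LOG7, which activate the hormone, rose by 1.79 ± 0.10 and 1.5 ± 0.05. Brassinosteroid genes fell in 10 of 18 cases (median -0.48), with the target BEE1 at -2.36 ± 0.09, while the synthesis gene CPD had -0.03 ± 0.03 (adjusted p = 0.433; lower on FPKM values, -0.17).

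Wall-loosening genes were mostly lower. Of 35 expansin, xyloglucan and pectin enzyme genes, 24 fell and 9 rose, and 22 fell by 2-fold or more (median -1.32). EXPA1, an expansin, went from 181 ± 5.44 to 40.6 ± 2.79 CPM (mean ± SD, n = 3), a log2 change of -2.15 ± 0.04, XTH4 went from 239 ± 1.63 to 26.3 ± 1.74 CPM, a log2 change of -3.18 ± 0.04, and XTH15 fell (-3.85 ± 0.10). EXLA3, of the expansin-like group, rose by 3.82 ± 0.09. Wall synthesis genes moved less, 11 of 22 lower and 2 higher (median -0.17), with the cellulose synthases CESA2 at -0.92 ± 0.03 and CESA3 at -0.57 ± 0.03 and COB, which orients cellulose, at -1.004 ± 0.03.

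Cell cycle genes were lower in 31 of 40 cases and higher in 3 (median -0.91). PCNA1, the sliding clamp of DNA replication, had 25.7, 25.6 and 27.7 CPM on MS and 7.16, 7.94 and 4.58 CPM with NaCl, a log2 change of -2.02 ± 0.10. CYCD6;1 (-2.31 ± 0.22), CDKB1;2 (-1.72 ± 0.22), CYCB1;3 (-1.55 ± 0.20) and CYCA1;1 (-1.14 ± 0.15) fell as well. The cyclin-dependent kinase inhibitors SMR5 (3.11 ± 0.37) and KRP1 (1.06 ± 0.10), named after their values were seen, rose.

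Ribosome biogenesis genes fell in 16 of 24 cases and rose in 4, with a small median of -0.28. FIB2, a fibrillarin of box C/D particles, went from 247 ± 7.13 to 82.5 ± 3.53 CPM (mean ± SD, n = 3), a log2 change of -1.58 ± 0.03, NOP56 fell (-0.93 ± 0.03), and REIL1, a late factor of the large subunit known from cold, rose by 0.998 ± 0.05. Translation factor genes had a median of -0.08, with ELF5A-3 (1.21 ± 0.03) higher and PAB4, a poly(A)-binding protein, lower (-0.65 ± 0.03). The falls of NUC-L1 (-0.11 ± 0.02), EIF4A1 (-0.12 ± 0.02) and EIF4G (-0.11 ± 0.03) were lost with all 24 libraries in 1 fit (adjusted p = 0.424, 0.264 and 0.517). Among 52 small nucleolar RNA genes 20 fell and 3 rose (median -0.47).

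Photosynthesis genes rose modestly. Light-harvesting and carbon fixation genes were higher in 26 of 33 cases and lower in 3 (median 0.70). LHCA4, of photosystem I, went from 189 ± 0.735 to 473 ± 2.08 CPM (mean ± SD, n = 3), a rise of 1.32 ± 0.03, and LHB1B1 and LHB1B2 rose by 1.57 ± 0.03 and 1.36 ± 0.02. The largest log2 change, 3.02 ± 0.08 for LHCB1.1, rests on a gene that shares nearly all its sequence with CAB1 and is uncertain. RBCS1A, of the Rubisco small subunit family, rose by 0.64 ± 0.02, also uncertain for that reason. Of 58 plastid-encoded genes 25 were lower and 0 higher (median -0.38; 0.0386% of reads at most). Of 19 mitochondrion-encoded genes 13 were lower, 10 of them by 2-fold or more, and 0 higher (median -1.27; 0.0301% of reads at most).

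Chlorophyll genes rose for both synthesis and breakdown, 20 of 24 higher and 2 lower (median 0.66). GUN5, a subunit of magnesium chelatase, rose by 1.27 ± 0.04, and the breakdown genes PPH (1.45 ± 0.04), NYC1 (1.34 ± 0.03) and PAO (1.26 ± 0.06) by similar amounts. GUN4, a chelatase activator, fell (-0.36 ± 0.08).

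Clock genes were higher in 18 of 31 cases and lower in 8 (median 0.42). CCA1, a morning factor, had 0.732, 0.266 and 0.428 CPM on MS and 4.02, 4.51 and 6.02 CPM with NaCl, a rise of 3.34 ± 0.27, whereas its partner LHY had 0.96, 1.29 and 0.857 CPM on MS and 0.828, 0.661 and 0.586 CPM with NaCl (-0.59 ± 0.40, adjusted p = 0.168). TOC1 rose by 0.70 ± 0.03 and CDF1, CDF2 and CDF3 by 1.503 ± 0.12, 1.54 ± 0.12 and 1.55 ± 0.19. The labels give no time of day. Light growth regulators had 10 of 24 higher and 11 lower (median -0.02), with the phytochrome-interacting factors PIF4 at 1.38 ± 0.07 and PIF3 at 1.31 ± 0.04.

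Genes of darkness and sugar starvation rose in 17 of 24 cases and fell in 7 (median 0.66). DIN6, asparagine synthetase ASN1, went from 19 ± 0.74 to 198 ± 4.98 CPM (mean ± SD, n = 3), a rise of 3.38 ± 0.05, SWEET15, a sugar exporter of senescence, rose by 4.13 ± 0.25, and sucrose synthase SUS1 by 2.46 ± 0.04.

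Of 20 genes of the unfolded protein response, which answers misfolding in the endoplasmic reticulum, 10 fell and 7 rose (median -0.23). BIP1 and BIP2, near-identical binding protein genes that may exchange reads, had -1.39 ± 0.03 and -1.39 ± 0.03. The lectin chaperones CRT1 and CNX1 went from 393 ± 5.49 to 103 ± 4.03 CPM and 541 ± 9.96 to 151 ± 2.09 CPM (mean ± SD, n = 3), with changes of -1.93 ± 0.03 and -1.84 ± 0.03, and the co-chaperone ERDJ3B had -1.70 ± 0.04. BIP3, the stress-induced copy, rose by 1.79 ± 0.21, and the factor BZIP60, named after its value was seen, by 1.47 ± 0.03.

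Heat shock proteins and co-chaperones of several compartments had 16 of 26 genes higher, 5 of them by 2-fold or more, and 6 lower (median 0.22), with HSP17.4A at 1.15 ± 0.13, HSP23.6-MITO at 2.54 ± 0.17 and FES1A at 1.13 ± 0.05. Salicylic acid and defence genes rose in 21 of 36 cases and fell in 5 (median 0.64). NHL10 (3.48 ± 0.12), FRK1 (1.52 ± 0.18) and PEPR1, a receptor of danger peptides (1.78 ± 0.04), rose, and ICS1, which makes salicylic acid, had -0.68 ± 0.11.

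Glucosinolate genes fell in 18 of 26 cases and rose in 8 (median -0.44). MAM3, a chain-elongating synthase, had 164, 157 and 165 CPM on MS and 14.1, 13.7 and 14.6 CPM with NaCl, a log2 change of -3.52 ± 0.05. CYP79F2 (-2.50 ± 0.07), CYP81F2 (-2.19 ± 0.10) and IPMI1 (-2.01 ± 0.07) fell too, and of the MYB regulators MYB28 had -1.16 ± 0.04 and MYB29 1.85 ± 0.11.

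Flavonoid genes moved in both directions, 14 of 27 higher and 10 lower (median 0.22). CHS, chalcone synthase, had -1.13 ± 0.05 and FLS1, flavonol synthase, -1.54 ± 0.09, both falls. The anthocyanin genes DFR (5.03 ± 0.42), LDOX (3.80 ± 0.40) and PAP1 (4.75 ± 0.37), named after their values were seen, rose from at most 0.202 CPM to at most 4.43 CPM (group means). TT19, an anthocyanin carrier also named afterwards, had 2 reads on MS and 134 with NaCl, a ratio of 80.8 with a counting interval of 21.9 to 674.

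Cuticle, wax and suberin genes had 18 of 37 higher and 15 lower, with the alkane synthesis gene CER1 (1.92 ± 0.07) and the elongase KCS2 (2.15 ± 0.07) higher and LACS1, an acyl-CoA synthetase of wax (-1.49 ± 0.04), and the Casparian strip gene CASP2 (-1.53 ± 0.17) lower. The median, 0.07, became -0.08 on FPKM values.

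Nutrient uptake genes were among the strong falls. Nitrate and ammonium genes fell in 16 of 27 cases and rose in 6 (median -0.29). The ammonium transporters AMT1;3 and AMT1;2 had -3.31 ± 0.14 and -2.80 ± 0.09, and the nitrate transporter NRT1.1 had 179.8, 180.5 and 187 CPM on MS and 43.7, 49.7 and 48 CPM with NaCl, a log2 change of -1.95 ± 0.04. NRT1.5, which loads nitrate into the xylem, had -2.07 ± 0.06, and NRT1.7, which moves it out of old leaves, rose by 1.098 ± 0.03.

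Iron, phosphate and sulfate genes fell in 16 of 32 cases and rose in 12 (median -0.27). FIT, the master factor of root iron uptake, had -2.75 ± 0.16, the phosphate transporter PHT1;1 -2.35 ± 0.05 and the sulfate transporter SULTR1;1 -2.66 ± 0.25. The iron storage gene FER1 rose by 1.78 ± 0.03 and BHLH38, the partner of BHLH39, had -2.80 ± 0.37; both were named after their values were seen. Many of these uptake genes are known from roots, and AMT1;2 and SULTR1;1 are also in the root marker list, whose summed level fell as given above.

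Genes often used as references for quantitative PCR were not all steady. ACT8 had 439, 413 and 444 CPM on MS and 426, 428 and 428 CPM with NaCl (-0.02 ± 0.02, adjusted p = 0.553), though it was called lower on FPKM values (-0.17). ACT2 had -0.18 ± 0.02, ACT7 -0.37 ± 0.02 and the tubulin TUA3 -1.46 ± 0.03, all lower. The polyubiquitin genes UBQ10 and UBQ11 rose by 0.78 ± 0.02 and 1.03 ± 0.02, and they share repeats that reads may not tell apart.

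**Figure D3:**
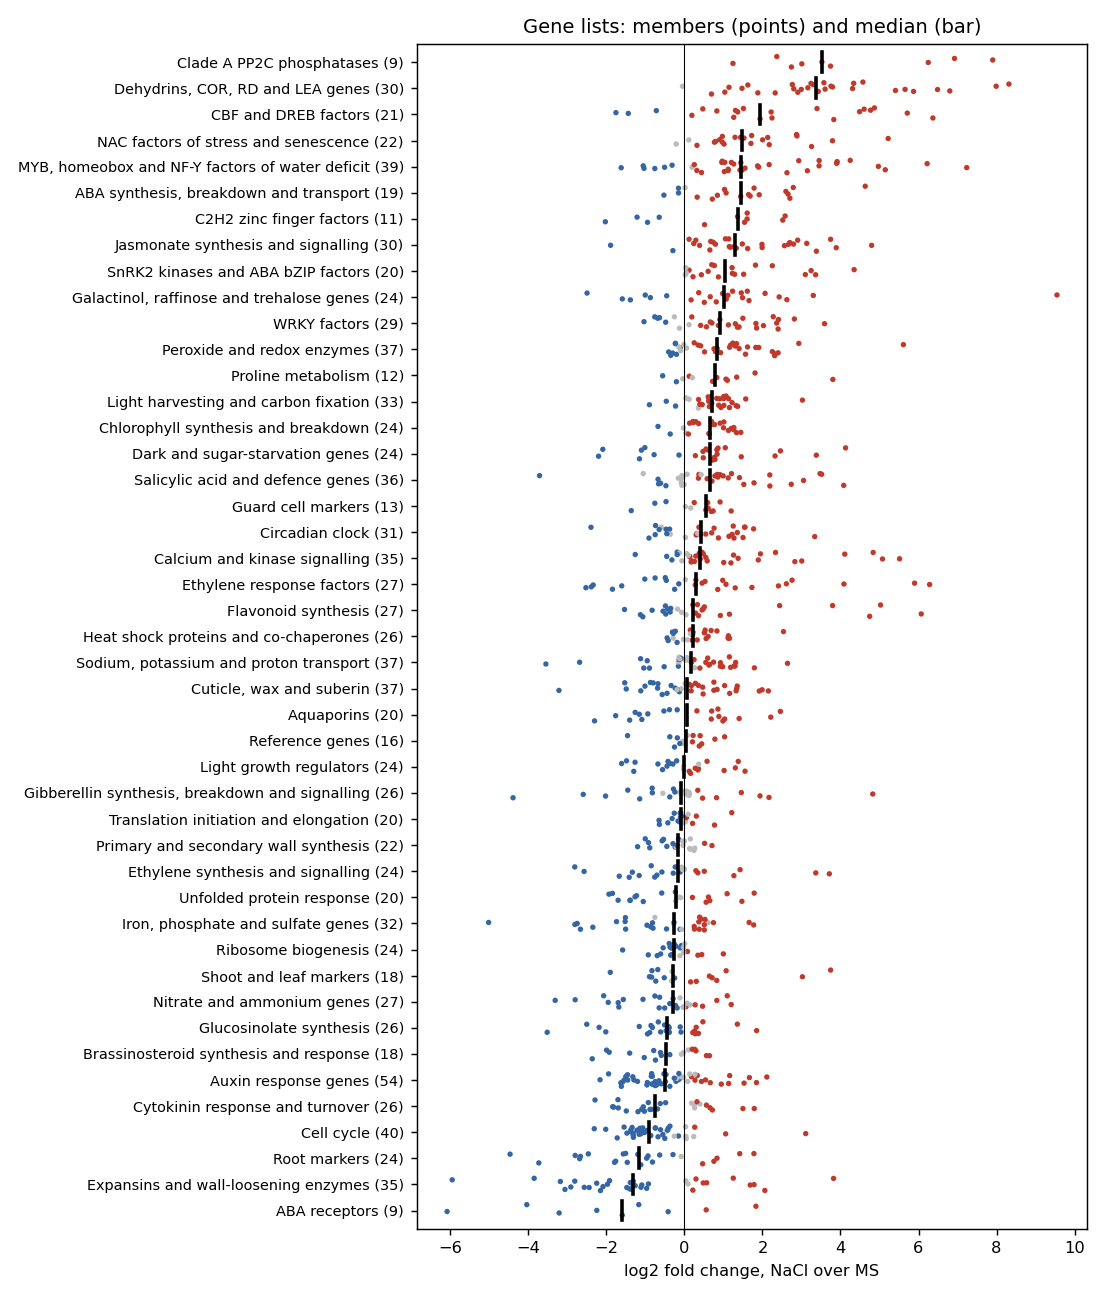
Log2 fold change (NaCl over MS) of every tested member of 45 gene lists in the wild type, with the number tested in brackets; red points were called higher, blue lower and grey neither, and the black bar is the list's median. PP2C, dehydrin and DREB lists lie at the top (medians 3.52, 3.36 and 1.94), and ABA receptors, wall-loosening enzymes and root markers at the bottom (medians -1.59, -1.32 and -1.16).

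Across all promoters, matches to the elements printed above were more frequent in rising than in falling genes. Among 20829 protein-coding genes tested, an ABRE match stood in the 250 bases before the start of 7.28%, of 17.5% of the 857 genes that rose 4-fold or more and of 2.82% of the 780 that fell 4-fold or more. DRE matches stood in 7.88% of all, 14.0% of those that rose and 4.74% of those that fell. With a fold of 2 or more in place of 4, ABRE shares were 14.9% and 3.36%, and DRE shares 11.7% and 5.37%. These shares have no test and are descriptions.

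The CAMTA motif (CGCGTT or CGCGGT), which calmodulin-binding factors recognise, stood in 3.89% of all promoters, 7.93% of the rising and 1.79% of the falling ones. The G-box (CACGTG) followed the ABRE, at 7.40, 18.09 and 4.103%, and 837 promoters held both, since the letters can overlap. The W-box (TTGACC or TTGACT), of WRKY factors, stood in 28.6% of all, 32.6% of the rising and 34.5% of the falling promoters. The GCC-box (GCCGCC) stood in 1.96, 2.22 and 1.41%, the evening element (AAATATCT) in 4.92, 5.95 and 5.51%, the telo-box (AAACCCTA) in 3.54, 2.92 and 2.82% and the heat shock element (GAANNTTC) in 9.42, 12.1 and 8.72%.

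**Figure D4:**
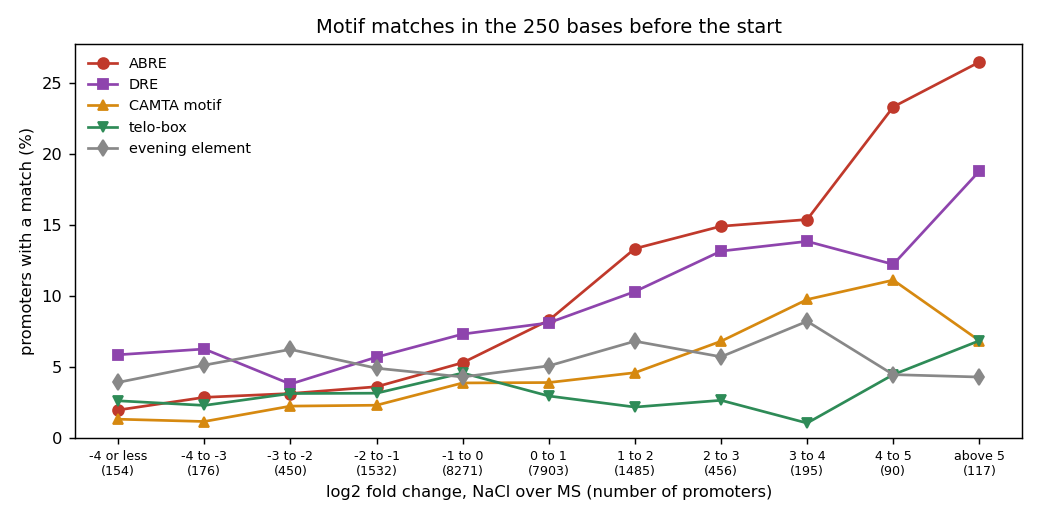
Percentage of promoters (250 bases before the start) with at least 1 match to 5 motifs on either strand, by class of log2 fold change (NaCl over MS) in the wild type, with the number of promoters in each class in brackets. ABRE matches rise from 1.95% in the class of strongest falls to 26.5% in the class of strongest rises. DRE matches stand at 5.84% and 18.8% in those classes but follow no steady order among the falls, with 3.78% at -3 to -2.

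Genes with large changes had fewer exons and shorter transcripts than other genes. The median annotated exon number was 4 over 20830 protein-coding genes tested, 2 for genes that rose 4-fold or more and 3 for those that fell 4-fold or more. Genes with 1 exon made up 16.4% of all, 28.7% of the strong rises and 27.9% of the strong falls. Median transcript length was 1716 bases over all, 1368 for the strong rises and 1533 for the strong falls. Among 601 nuclear long noncoding RNA genes, 112 rose and 37 fell by 2-fold or more, and where they lie antisense to a gene the reads may be shared, since how strand was treated in counting is not stated in the labels.

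The mutant offers a test of whether the response depends on genotype. The salt response differed between wild type and exa1-1 for 4606 of 21759 genes (21.2%), or for 442 (2.03%) with a difference of 2-fold or more. Of the 902 genes that rose 4-fold or more in the wild type, 887 were also called higher in exa1-1, and of the 803 that fell, 785 were also called lower. The share of all genes called in exa1-1 was not counted, so these counts have no share over all genes beside them. The difference was called for 292 of the strong rises, of which 234 were smaller in the wild type and 58 larger, and for 129 of the strong falls, of which 76 were larger in the wild type and 53 smaller. Since these genes were selected on their change in the wild type, such splits are tilted towards larger there. No matching count was made for genes selected in exa1-1. NCED3 rose by 4.63 in wild-type and by 7.25 in mutant seedlings (difference -2.62, adjusted p = 1.24e-19), and RD29B by 6.80 and 9.05 (difference -2.25, adjusted p = 0.00878). P5CS1 rose more in the wild type, 3.80 against 3.33 (adjusted p = 7.88e-12). The count of differing genes was 1612 with all 24 libraries in 1 fit.

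By list, the difference from exa1-1 was called for 18 of 30 dehydrin and LEA genes with a lower value in the wild type and for 1 with a higher one. Light-harvesting and carbon fixation genes showed the reverse, 28 of 33 with a higher value in the wild type and 2 lower, with median responses of 0.70 (wild type) and 0.40 (exa1-1). Aquaporin genes had 15 of 20 lower in the wild type (medians 0.07 and 0.76). Further lists leaned that way too, with 15 of 24 ethylene genes and 13 of 22 NAC genes lower in the wild type and 0 and 2 higher. Over all genes the difference was called for 21.2% in either direction, and the share in each direction was not counted.

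Heat at 39 °C, measured in other wild-type libraries with their own 23 °C controls, gave another pattern for many of the same genes. In heat 7907 of 21751 genes were higher (36.4%) and 8758 lower (40.3%), 1106 (5.08%) and 2153 (9.90%) of them by 4-fold or more. The salt and heat responses differed for 15328 genes (70.5%). Of the genes tested in both, 199 rose 4-fold or more in salt and in heat, which is 23.61% of those rising in salt and 19.8% of those rising in heat. Falls shared at that size numbered 223, which is 29.3% of the salt falls and 10.6% of the heat falls.

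Several ABA and stress factor lists had higher values in salt than in heat. PP2C genes had a median of 3.52 in salt and 1.12 in heat, with 8 of 9 differences called higher in salt. NAC factors had 1.48 and -0.19, and WRKY factors 0.91 and -0.66, with 24 of 29 differences called higher in salt. Over all genes 70.5% of differences were called in either direction, and the share higher in salt was not counted. Other stress lists had lower medians in salt than in heat: CBF and DREB genes 1.94 and 2.33, C2H2 genes 1.36 and 1.47, redox genes 0.84 and 1.12. Their differences were called higher in salt for 3, 4 and 11 genes and lower for 8, 5 and 18. HB7 rose by 3.45 in salt and had -0.24 in heat (adjusted p of the difference = 3.76e-17), and P5CS1 3.80 and -0.21. DREB2A changed by 3.83 in salt and 7.01 in heat (adjusted p of the difference = 2.07e-06). Growth lists were lower in both, with medians of -0.51 and -1.43 for auxin, -0.77 and -1.96 for cytokinin and -1.32 and -1.60 for wall-loosening genes. Heat shock genes had medians of 0.22 and 7.40, and unfolded protein response genes -0.23 and 1.93. Root markers fell in 18 of 24 cases in heat as well, with a median of -1.01.

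**Figure D5:**
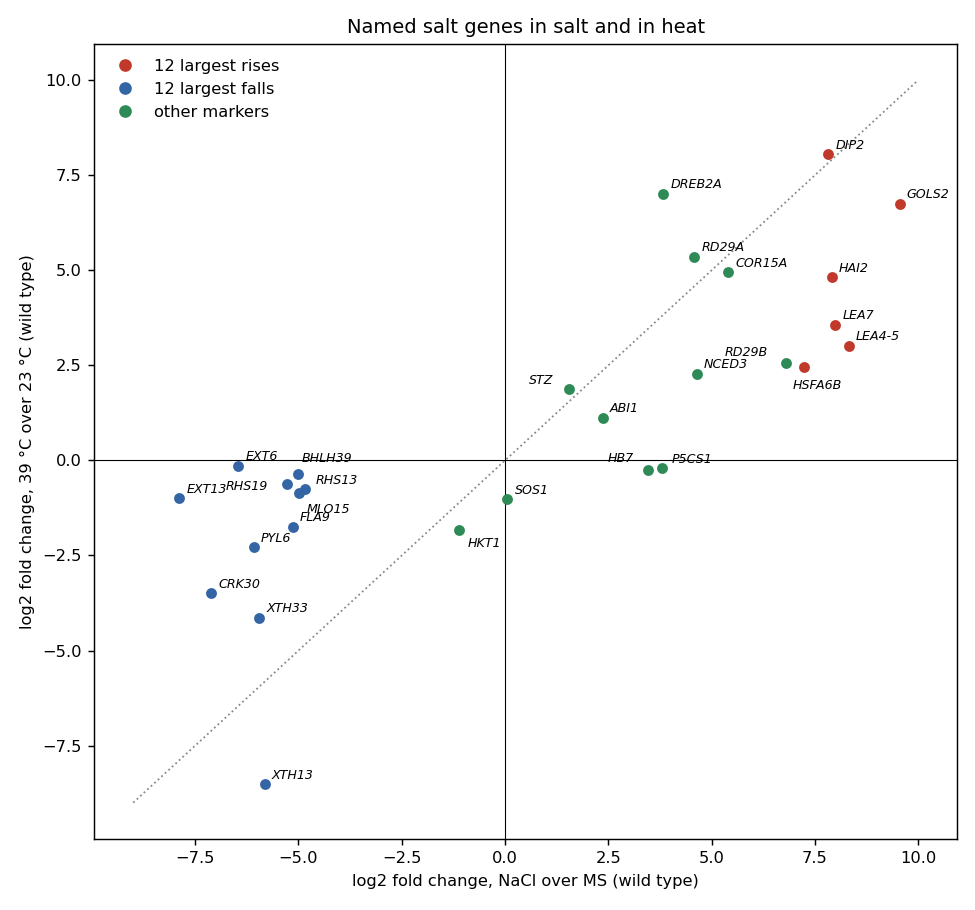
Log2 fold change in salt (x axis, NaCl over MS) against that in heat (y axis, 39 °C over 23 °C) for wild-type genes with at least 1 CPM at 23 or 39 °C, from the 12 largest salt rises (red), the 12 largest salt falls (blue) and the other markers (green); the dotted line marks equal change. GOLS2 (9.55 and 6.75) and DIP2 (7.82 and 8.06) rose in both, whereas EXT6 (-6.46 and -0.14) lies near 0 on the heat axis.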

How the data were processed

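RNA-seq of whole seedlings was analysed from 2 deposited tables. Per the deposited count table, values are whole numbers of reads per gene, the basis of each main test. The authors also deposited FPKM values, scaled by them to gene length and library total, which served as 1 alternative. HISAT2 2.0.4, HTSeq 0.6.1p1 and the TAIR10 build are listed in the submitters' processing notes. The libraries were strand-specific per the labels' protocols, and how strand was treated in counting is not stated in them. An alignment-based count can split reads among near-identical genes.

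Counts of the 12 libraries of the salt set were filtered (filterByExpr), scaled by TMM and fitted with edgeR 4.0.16 (robust quasi-likelihood, 8 residual degrees of freedom, R 4.3.3). The wild-type salt response was a contrast of NaCl and MS. The heat comparison used the 12 wild-type libraries. P-values were adjusted by Benjamini-Hochberg over all genes tested, with a threshold of 0.05. Standard errors are approximate, the size of each log2 change divided by the root of its F statistic. Alternatives used DESeq2 1.42.0 and limma 3.58.1. The fit was checked on simulated counts in which most genes did not change, so that check does not cover a response as wide as this one.

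Loci were matched to RefSeq's TAIR10.1 annotation (32548 of 32833). Of 1279 entries in 46 gene lists 1213 were matched. The gene lists and named genes were chosen with earlier results of these data known. Named genes were the 12 largest rises and falls with a symbol, no overlap between groups and at least 5 CPM in the higher group, 12 markers, per list the first 3 members and the 4 called members with the largest change (all of lists of up to 15), and the 3 genes with the most CPM gained and lost. Other genes named are said to be chosen after their values were seen. With 3 replicates per group, intervals on reads (95%, exact binomial) cover counting error only.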

Additional observations from a re-analysis of the deposited data

Results flagged for a closer look

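The salt response differed between genotypes for 4606 genes by the test of the difference itself, and for 7 of the 12 marker genes. As wild type minus exa1-1 on the log2 scale, the difference was -2.62 for NCED3, -2.25 for RD29B, -0.76 for HB7, -0.64 for ABI1, -0.44 for STZ and -0.36 for RD29A, so that these 6 rose less in the wild type. It was 0.48 for P5CS1, which rose more. Adjusted p-values of these differences ran from 3.08e-31 for ABI1 to 0.00878 for RD29B. RD29B rests on 15 reads in the wild-type MS libraries. Groups of 3 libraries were too small for a check of single libraries that stand apart.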

How the results depend on the processing

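The number of genes called, 16199, ran from 14608 (all 24 libraries in 1 fit) to 16492 (no filter on low counts), with 15611 by DESeq2, 16189 with RLE size factors, 15956 with only the 6 libraries compared, 16158 without organelle genes and 16268 by limma on FPKM values. Leaving out each of the 6 libraries gave 15506 to 15733. Genes called with a fold of 2 or more numbered 4850, or 3087 by limma on log2(FPKM + 1), which changes scaling, added value and test together. There the higher share of calls was 38.2% in place of 49.6%. The genotype difference was called for 4606 genes, or 1612 with all 24 libraries in 1 fit. Same-numbered MS and NaCl libraries did not deviate together (correlations -0.003, -0.011 and -0.048 over 14197 genes). No shared effect was visible, but these values cannot tell whether same-numbered samples were grown or processed together. With the replicate number as a block 16133 genes were called.

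Among called genes, SNRK2.1 (-0.03) and PRODH1 (-0.0295) changed sign on FPKM values. The calls of GA1, IAA3, IRT1, MUTE, EPF1, EIF4G, PBS3 and CER2 were lost when at least 1 of the libraries was left out. Depth limits the genes under 1 CPM, whose folds have wide counting intervals, and the causes of these shifts were not tested.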
